A study of Mus musculus with 15 samples.

Results

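The 10 genes and pseudogenes described here, of 55536 genes in the deposited tables, were listed by name because their values moved in large steps from sample to sample in mouse skeletal muscle. They are AI506816, Gm10020, Gm6123, Gm12663, Gm13453, Gm5182, Hist1h2al, Eif3j2, Tmem181c-ps and Aspg. The values in all 15 samples chose them, so their levels, differences and steps are given below as a description, with no test. Tests are reported for other genes, whose values did not enter the rule: sequence relatives, neighbours in the genome, and lists of marker, pathway and strain-differing genes. Near-identical relatives may share reads with the 10 genes, and the lists were chosen with earlier results of these data known. The files hold RNA values only, so whether the mice carried different copies of these genes was not tested.

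The study took poly(A) RNA from skeletal muscle of male mice that were 2 months old, to compare muscle with too little and too much signalling by PDGFRB, a receptor tyrosine kinase for platelet-derived growth factor. There were 5 wild-type controls, 5 mice with the genotype PdgfrB Knock Out and 5 with PdgfrB D489V, the constitutively active form, and the series' design text gives both changes as specific to cells that express myogenin, a transcription factor of differentiating muscle cells. The labels name no strain, litter, Cre line, muscle or batch, so these cannot be told apart from the groups. Bulk muscle also holds cells outside that lineage, such as pericytes, which normally express Pdgfrb. In bulk RNA, fewer cells of a type and less RNA per cell cannot be told apart.

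A processed pseudogene is a copy of a messenger RNA that was written back into DNA and inserted elsewhere in the genome, usually without introns. An unprocessed pseudogene arose by duplication of the gene itself. Short reads from such a copy and from its parent gene can be hard to assign, because long stretches of both are the same. A read count for a pseudogene therefore depends on the few bases that differ, and on how the counting treats reads that match several places.

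Of the 10, Gm10020, Gm6123, Gm12663, Gm13453, Gm5182 and Hist1h2al are annotated as processed pseudogenes and Tmem181c-ps as an unprocessed pseudogene in GENCODE release M21 on GRCm38. AI506816 is annotated as a processed transcript with no coding sequence, and Eif3j2 and Aspg as protein-coding genes. Each transcript was aligned to every other annotated transcript, and 9 of the 10 had a near-identical relative, here a gene of at least 95% identity over at least 50% of a transcript. Aspg had none: its best match was 84.8% identical over 138 bases. The 10 genes differed in the share of their 50-base stretches that occurs in no transcript of another annotated gene. That share was 8.15% for Eif3j2 and 8.88% for Gm10020, 17.0% for Gm5182, 26.2% for Gm12663 and 27.7% for Tmem181c-ps. It was 32.4% for Hist1h2al, 32.5% for Gm13453, 56.6% for Gm6123, 89.3% for AI506816 and 100% for Aspg. With stretches of 100 bases it was 24.8% for Gm10020, 80.8% for Hist1h2al and 16.0% for Eif3j2.

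Gm10020 lies at chr15:52477617-52478228 on the minus strand and is a copy of Rpl15, which encodes a protein of the large ribosomal subunit. Over all 612 bases only 2 differ from Rpl15, and the 77 bases below hold both, in capitals, because a read must cover one of them to be told from Rpl15. The Gm10020 stretch is chr15:52478012-52478088, minus strand. The Rpl15 stretch is coding sequence spliced from exons 2 and 3 within chr14:18269999-18270310, minus strand. All sequences here are from GENCODE transcripts on GRCm38 and run 5′ to 3′ unless another source is named.
Gm10020: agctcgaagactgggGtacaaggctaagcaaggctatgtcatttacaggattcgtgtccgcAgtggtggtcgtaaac
Rpl15: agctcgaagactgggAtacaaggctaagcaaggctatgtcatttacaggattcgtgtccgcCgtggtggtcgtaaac

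Gm6123 (chr1:4771131-4772199, plus strand) is a copy of Pdhb, the beta subunit of pyruvate dehydrogenase, the mitochondrial enzyme that turns pyruvate into acetyl-CoA. It is 97.0% identical to Pdhb over 1079 aligned bases with 19 substitutions. The 85 bases shown hold 5 of them, in capitals, as an example of a stretch where the copy is easier to tell from its parent. The Gm6123 stretch is chr1:4771911-4771995, plus strand, and the Pdhb stretch is coding sequence spliced from exons 8 and 9 within chr14:8166771-8169345, minus strand.
Gm6123: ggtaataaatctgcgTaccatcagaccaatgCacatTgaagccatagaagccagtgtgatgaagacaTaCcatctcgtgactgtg
Pdhb: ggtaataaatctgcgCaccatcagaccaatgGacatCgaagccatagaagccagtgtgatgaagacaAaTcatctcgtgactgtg

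Gm13453 (chr2:40127504-40127860, minus strand) is a copy of Atp6v1g1, a subunit of the proton pump that acidifies lysosomes and other vesicles. It differs from Atp6v1g1 at 2 of 357 bases. The 121 bases shown hold both, in capitals. The Gm13453 stretch is chr2:40127664-40127784, minus strand, and the Atp6v1g1 stretch is coding sequence spliced from exons 1 to 3 within chr4:63544994-63549958, plus strand.
Gm13453: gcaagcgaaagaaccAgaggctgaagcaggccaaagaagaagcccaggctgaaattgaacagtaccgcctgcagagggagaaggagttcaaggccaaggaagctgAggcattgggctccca
Atp6v1g1: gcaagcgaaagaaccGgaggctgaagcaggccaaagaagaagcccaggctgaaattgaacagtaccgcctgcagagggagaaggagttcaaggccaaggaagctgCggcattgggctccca

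Hist1h2al (chr13:51202727-51203065, minus strand) is a histone H2A sequence, one of the proteins that package DNA into nucleosomes, annotated on this build as a processed pseudogene. It differs at 2 of 339 bases from Hist2h2aa1 and shares at least 95% identity with 7 annotated genes in all. The 127 bases shown hold both differences, in capitals. The Hist1h2al stretch is chr13:51202835-51202961, minus strand, and the Hist2h2aa1 stretch is coding sequence of its exon 1 at chr3:96245700-96245826, plus strand.
Hist1h2al: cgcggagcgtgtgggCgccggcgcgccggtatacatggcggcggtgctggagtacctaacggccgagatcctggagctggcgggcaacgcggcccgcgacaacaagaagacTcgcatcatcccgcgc
Hist2h2aa1: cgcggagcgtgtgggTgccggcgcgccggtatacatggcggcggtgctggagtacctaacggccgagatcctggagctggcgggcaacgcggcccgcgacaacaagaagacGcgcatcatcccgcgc

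AI506816 (chr5:23698296-23712667, minus strand) shares more than transcript sequence with its relative 2700038G22Rik, a long intergenic non-coding RNA whose gene starts at chr5:23850597. The transcript match covers a 345-base transcript of AI506816, 95.4% identical over 347 aligned bases with 8 substitutions. Over all transcripts of AI506816, 89.3% of 50-base stretches occur in no transcript of another annotated gene. RefSeq promoter sequences of both (GRCm38.p6) hold a stretch of 206 bases, on opposite strands, in which 200 bases are identical. The stretch is chr5:23712618-23712823, minus strand, for AI506816 and chr5:23850440-23850645, plus strand, for 2700038G22Rik, and it runs across both start sites. It is shown because the values of both transcripts moved in opposite directions, as given below. Capitals mark the 6 bases that differ.
AI506816: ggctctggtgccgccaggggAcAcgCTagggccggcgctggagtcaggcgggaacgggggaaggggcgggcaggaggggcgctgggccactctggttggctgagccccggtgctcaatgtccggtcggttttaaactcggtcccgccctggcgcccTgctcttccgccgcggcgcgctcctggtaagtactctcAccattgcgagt
2700038G22Rik: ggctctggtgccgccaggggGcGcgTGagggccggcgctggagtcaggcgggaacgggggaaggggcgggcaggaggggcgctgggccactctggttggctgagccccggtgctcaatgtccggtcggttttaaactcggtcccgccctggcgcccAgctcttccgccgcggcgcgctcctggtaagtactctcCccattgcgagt

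The remaining relatives were also close. Gm12663 (chr11:16635109-16636066, minus strand) is a copy of Ublcp1, a phosphatase that acts on the proteasome in the nucleus, and is 99.4% identical to it over 958 bases with 5 substitutions. Gm5182 (chr12:10152142-10158233, plus strand) is a copy of Acaca, acetyl-CoA carboxylase, the enzyme of the committed step of fatty acid synthesis, and is 99.2% identical to it over 6118 aligned bases with 20 substitutions. Eif3j2 (chr18:43475418-43477796, minus strand) matches Eif3j1, which encodes subunit J of translation initiation factor eIF3. The match is 99.4% identical over 2379 aligned bases, with 4 substitutions and 2 gaps. Tmem181c-ps (chr17:6613753-6639790, minus strand) is 95.9% identical over 1386 bases to Tmem181b-ps and, equally, to Tmem181a, a multi-pass membrane protein gene. Aspg (chr12:112106679-112127559, plus strand) encodes an asparaginase, which splits asparagine into aspartate and ammonia.

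The deposited values are counts normalized by the authors and rounded to whole numbers. Their sums per sample ran from 29815559 to 36489777, and between 20799 and 23783 genes were detected above 0. The read depth behind a value is not known. Pdgfrb itself averaged 1753.6 ± 72.9 in controls, 1307.6 ± 265.8 in knockout and 905.8 ± 106.3 in D489V samples (SD, n = 5 each), and by limma it fell in D489V against control (log2 difference -0.96, Benjamini-Hochberg adjusted p = 0.00168) but did not pass in knockout (-0.45, adjusted p = 0.294). The library labelled knockout replicate 3 stood apart: it had an Xist value of 3165 against 101 or less elsewhere, and a Ddx3y value of 367 against 1437 to 3887, although all labels say male. Lymphocyte and venule markers summed to between 31 and 4845 in controls, between 26 and 4542 in knockout and between 102 and 255 in D489V samples, highest in control 5 and knockout 4. Schwann cell markers were highest in D489V 3 at a sum of 49304, and adipocyte markers lowest in control 4 at 1653.

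Gm10020, Gm6123 and Tmem181c-ps divided the 15 samples at the same place. A sample was called high or low for a gene by the largest gap between its sorted values on the log2(value + 1) scale. Values of 0 or 1 were reached by Gm10020, Gm5182, Hist1h2al and Tmem181c-ps, while the lowest values of the other 6 ran from 5 (Gm12663) to 146 (Eif3j2). Whether reads of relatives make up such low values was not tested, so low and off cannot be told apart for these 6. Gm10020 stood at 1, 1, 196, 226 and 20 in controls 1 to 5, at 497, 292, 289, 511 and 700 in knockout 1 to 5, and at 13, 1, 6, 48 and 16 in D489V 1 to 5. All 5 knockout samples lay above every other sample, controls 3 and 4 came next, and controls 1, 2 and 5 lay among the D489V samples. Gm6123 stood at 15, 36, 795, 854 and 33 in controls, at 2006, 941, 738, 1434 and 2344 in knockout and at 61, 29, 25, 187 and 59 in D489V samples. Its order was much the same, except that knockout 3 fell below controls 3 and 4, so that these groups overlapped. The gap was 2.01 on the log2 scale for Gm10020 and 1.97 for Gm6123, with the same 7 high samples.

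Tmem181c-ps was the mirror image. It stood at 44, 49, 1, 0 and 28 in controls, at 1, 0, 1, 2 and 2 in knockout and at 65, 35, 29, 31 and 48 in D489V samples. Controls 1, 2 and 5 lay with the 5 D489V samples, and controls 3 and 4 with the 5 knockout samples, on either side of the widest gap of the 10 genes (3.27 on the log2 scale). No sample lay between 2 and 28. Of the 45 pairs that the 10 genes form, 3 had identical or mirrored divisions, and all 3 were among Gm10020, Gm6123 and Tmem181c-ps. The 10 genes made 8 different divisions in all.

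**Figure D1:**
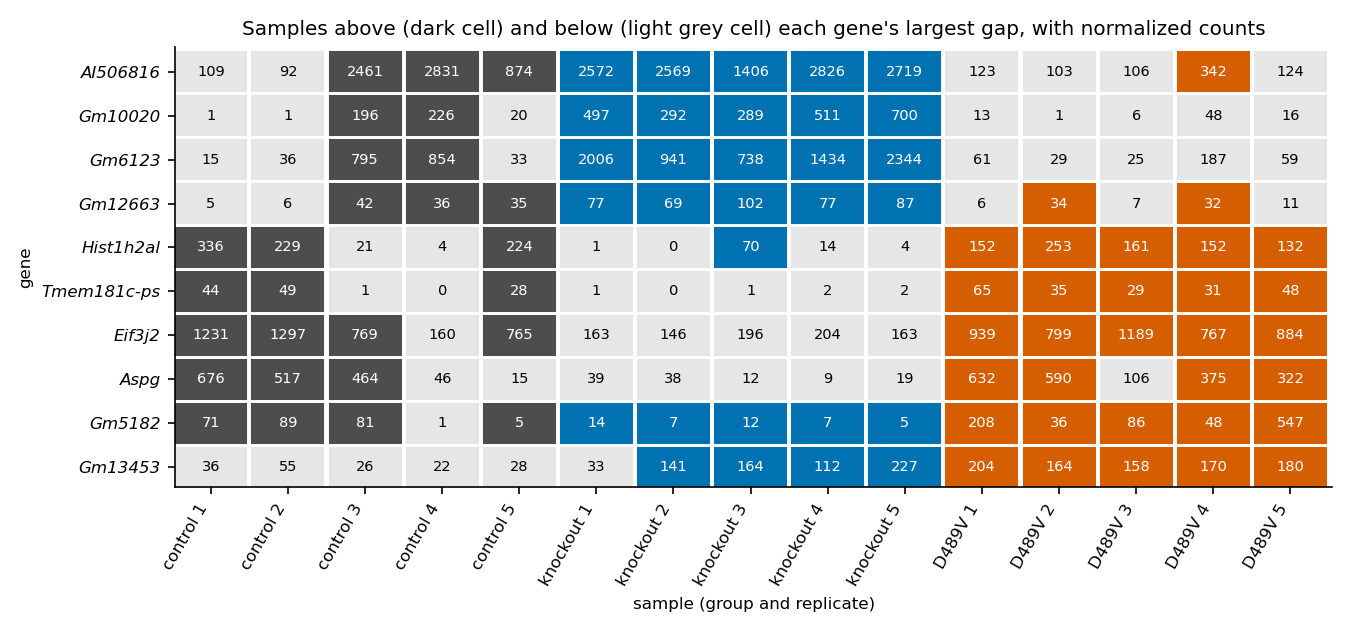
Rows are the 10 genes, columns the 15 samples, and each cell prints the normalized count. Dark cells lie above the gene's largest gap on the log2(value + 1) scale and light grey cells below it: Gm10020 and Gm6123 are dark in controls 3 and 4 and all knockout samples, the same 7 samples in which Tmem181c-ps is light.

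AI506816 and Gm12663 were high in the same knockout samples and in more of the others. AI506816 stood at 109, 92, 2461, 2831 and 874 in controls, at 2572, 2569, 1406, 2826 and 2719 in knockout and at 123, 103, 106, 342 and 124 in D489V samples. Controls 3 and 4 lay at the knockout level, control 5 between, and controls 1 and 2 at the level of the lower D489V samples. The 9 high samples included D489V 4, whose 342 was the lowest of them. Gm12663 stood at 5, 6, 42, 36 and 35 in controls, at 77, 69, 102, 77 and 87 in knockout and at 6, 34, 7, 32 and 11 in D489V samples. Its knockout samples lay above all others. Controls 3, 4 and 5 and D489V 2 and 4 formed a middle level of 32 to 42, so a division into high and low covers at least 3 levels here.

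Hist1h2al and Eif3j2 ran the other way, low in all or nearly all knockout samples. Hist1h2al stood at 336, 229, 21, 4 and 224 in controls, at 1, 0, 70, 14 and 4 in knockout and at 152, 253, 161, 152 and 132 in D489V samples. Controls 1, 2 and 5 lay at or above most D489V samples, and controls 3 and 4 lay within the knockout range. The highest knockout value, 70, was that of the library with the high Xist value, and the part of that library in the result was not tested. Without it the knockout samples held 14 or less. Eif3j2 stood at 1231, 1297, 769, 160 and 765 in controls, at 163, 146, 196, 204 and 163 in knockout and at 939, 799, 1189, 767 and 884 in D489V samples. Control 4 alone among the controls lay with the knockout samples, and no sample lay between 204 and 765.

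Aspg and Gm5182 also held low values in all knockout samples. Aspg stood at 676, 517, 464, 46 and 15 in controls, at 39, 38, 12, 9 and 19 in knockout and at 632, 590, 106, 375 and 322 in D489V samples. Controls 4 and 5 lay with or near the knockout samples, and D489V 3 lay between both levels. Gm5182 stood at 71, 89, 81, 1 and 5 in controls, at 14, 7, 12, 7 and 5 in knockout and at 208, 36, 86, 48 and 547 in D489V samples. Its largest gap only parted control 4, at 1, from the other 14 samples, the next at 5, where small counts make wide gaps on the log2 scale. No sample lay between 14 and 36. Controls 4 and 5 and all knockout samples lay below, and controls 1 to 3 and all D489V samples above.

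Fat-cell transcripts moved with both, and with others of the 10. The Spearman correlation with Adipoq, an adipocyte hormone gene, over the 15 samples was 0.82 for Gm5182, 0.79 for Aspg, 0.73 for Tmem181c-ps and 0.65 for Eif3j2. It was negative for Gm12663 (-0.65), AI506816 (-0.64) and Gm10020 (-0.57). With Cfd, another adipocyte gene, it was 0.78 for Tmem181c-ps, 0.77 for Aspg and -0.73 for AI506816. For these genes it was weaker with the adipocyte markers Plin1 (0.55, 0.71 and -0.50, in that order) and Lep (0.42, 0.52 and -0.37). For Gm5182 it was 0.77 with Plin1 and 0.78 with Lep. All these points share libraries and groups. Aqp7, a glycerol channel of adipocytes, was among the 3 genes most like Aspg (Spearman 0.94). The 5 adipocyte markers summed to between 1653 and 29803 in controls, between 5737 and 9244 in knockout and between 15045 and 54309 in D489V samples, and none was at 0 in any sample. Controls 4 and 5, low for Aspg and Gm5182, held the lowest Adipoq values, 179 and 351, and D489V 3 held the lowest Adipoq value of its group, 1294. The part of adipocyte RNA in the values of the 10 genes was not tested.

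Gm13453 followed none of the other 9 genes. It stood at 36, 55, 26, 22 and 28 in controls, at 33, 141, 164, 112 and 227 in knockout and at 204, 164, 158, 170 and 180 in D489V samples. All controls and knockout 1 lay at or below 55, and the other 9 samples at or above 112. Its Spearman correlation with the other 9 genes ran from -0.26 to 0.45. It is the one gene of the 10 whose D489V and control samples did not overlap.

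**Figure D2:**
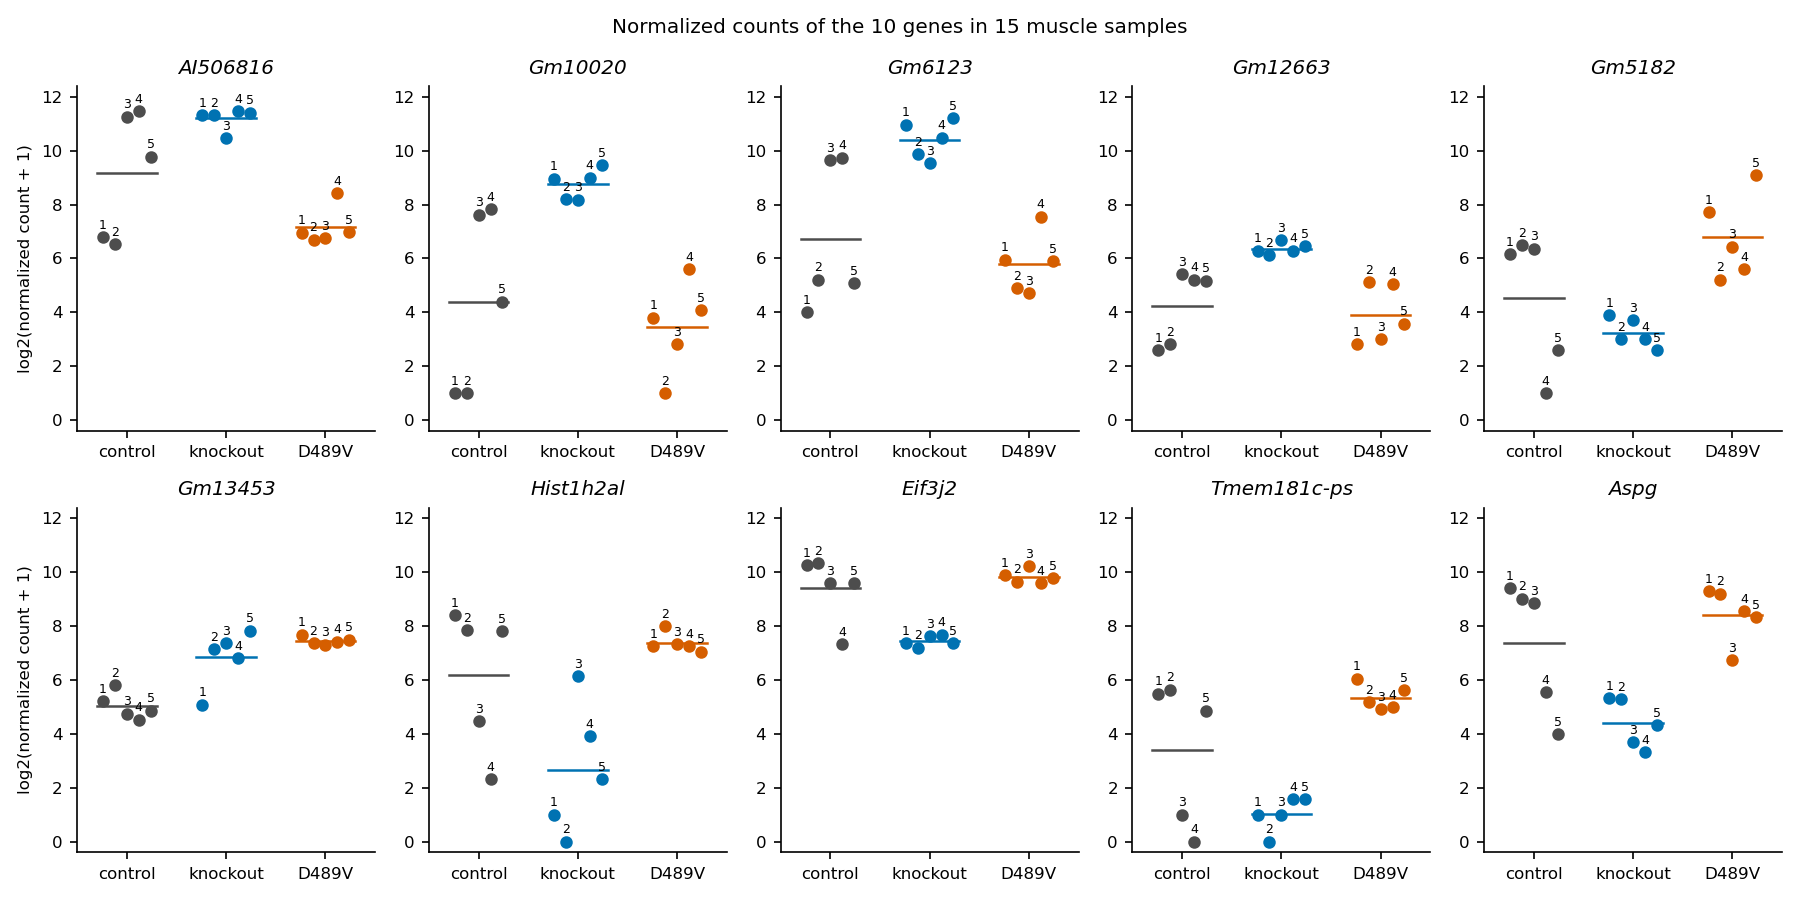
Each panel shows 1 gene, with log2(normalized count + 1) on the vertical axis, 1 numbered point per sample and a bar at the group mean. In the AI506816, Gm10020, Gm6123 and Tmem181c-ps panels controls 3 and 4 sit with the knockout samples and controls 1 and 2 with the D489V samples. In the Gm13453 panel all 5 controls sit low, at 22 to 55.

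By group, knockout and D489V values stood apart for most of the 10 genes, while for most the controls spanned both. In knockout against D489V the log2 differences were 5.29 ± 0.66 (SE, n = 5 per group) for Gm10020, 4.61 ± 0.49 for Gm6123, 4.04 ± 0.31 for AI506816 and 2.46 ± 0.44 for Gm12663. They were -4.70 ± 0.90 for Hist1h2al, -4.31 ± 0.40 for Tmem181c-ps, -4.04 ± 0.51 for Aspg, -3.58 ± 0.63 for Gm5182 and -2.38 ± 0.14 for Eif3j2. For Gm13453 the difference was -0.60 ± 0.40. Knockout and D489V values did not overlap for 9 of the 10, where 13.9% of the 15299 genes tested did not overlap and 20.8% passed an adjusted p of 0.05 (10.5% higher and 10.3% lower in knockout). The genes were chosen on these values, so nothing is read from that count.

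Against controls the picture was looser. All 10 passed the filter on low values in both comparisons except Tmem181c-ps in knockout against control. Knockout and control values did not overlap for 2 of the 10, Gm10020 and Gm12663, where 2.24% of 15234 genes tested did not, and 0.00656% passed the threshold. D489V and control values did not overlap for 1 of the 10, Gm13453, where 2.16% of 15339 genes tested did not, and 0.0587% passed (0.0261% higher, 0.0326% lower). The control SD exceeded the control mean for AI506816 (1273.4 ± 1298.8, n = 5), Gm10020 (88.8 ± 112.3) and Gm6123 (346.6 ± 436.8). Both comparisons use the same 5 controls.

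In knockout against D489V other tissue markers also differed. By limma 4 of 5 adipocyte markers, 5 of 5 Schwann cell markers and 5 of 5 erythroid markers were lower in knockout, and 0 of 8 skeletal muscle fibre markers passed (1 at an unadjusted p under 0.05). The summed Schwann cell markers lay between 6095 and 9698 in knockout samples and between 12093 and 49304 in D489V samples, and the summed erythroid markers between 3175 and 8032 and between 12454 and 22120. Their part in the differences of the 10 genes was not tested.

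Rpl15, Pdhb and Ublcp1 did not share the steps of their copies. Rpl15 stayed within 2980 to 4366 in all 15 samples, a 1.47-fold range, while Gm10020 ranged from 1 to 700. Its knockout against D489V difference was -0.04 ± 0.10 (adjusted p = 0.815, limma). Gm10020 made up 6.66% to 13.8% of the summed normalized counts of both genes in knockout, 0.0249% to 1.33% in D489V and 0.0236% to 6.17% in control samples, not corrected for length. Pdhb ranged from 7029 to 11123 (0.11 ± 0.13, adjusted p = 0.548), with Gm6123 at 8.63% to 17.4% of that pair in knockout and at 0.354% to 1.93% in D489V samples. Within its narrow range Pdhb had a Spearman correlation of 0.63 with Gm6123, where it was -0.34 for Rpl15 with Gm10020 and -0.07 for Ublcp1 with Gm12663. Ublcp1 ranged from 557 to 717 (0.06 ± 0.09, adjusted p = 0.652), with Gm12663 at 10.2% to 14.7% of the pair in knockout and 1.05% to 5.75% in D489V samples. Where reads of a copy and its parent were divided by the counting, these shares carry that division.

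Other copies of Rpl15 were looked at beside Gm10020, though reads of Gm10020 may be counted for them. The part of such reads in their values was not tested. Gm10020 has 12 near-identical relatives, Rpl15 included, and 7 of the 12 stayed under 10 in every sample. Rpl15-ps2, a pseudogene on chromosome 9 that is 98.7% identical to Gm10020, stood at 0, 0, 33, 44 and 6 in controls, at 87, 41, 26, 76 and 102 in knockout and at 7, 3, 1, 14 and 3 in D489V samples. That resembles Gm10020 at a lower level (Spearman 0.95 over 15 samples), with controls 1 and 2 again lowest. Here knockout and control samples overlapped, since knockout 3 lay below controls 3 and 4 and knockout 2 below control 4. Rpl15-ps2 was higher in knockout than in D489V samples (log2 difference 3.53 ± 0.54, adjusted p = 0.00309, limma). Rpl15-ps3, 99.7% identical to Gm10020, stayed at 7 to 11 in controls and at 7 or 8 in D489V samples, and reached 12 to 35 in knockout. Its log2 difference in knockout against D489V was 1.35 ± 0.30 (adjusted p = 0.0134, limma). Gm49594, 99.5% identical, ran the other way (Spearman -0.57), at 21, 3, 14, 9 and 12 in knockout and at 54, 31, 38, 12 and 15 in D489V samples. Its difference did not pass (-1.28 ± 0.51, adjusted p = 0.0873, limma). Gm4294, 99.7% identical, did not follow Gm10020 (Spearman 0.09), and its difference did not pass (0.20 ± 0.35, adjusted p = 0.704, limma).

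Acaca and Atp6v1g1 varied more widely, and in the same sense as their copies. Acaca stood at 4005, 3236, 7065, 881 and 662 in controls, at 1964, 1682, 898, 685 and 795 in knockout and at 4300, 3916, 1214, 6495 and 5129 in D489V samples. Controls 4 and 5 were low for Acaca as for Gm5182, and the Spearman correlation was 0.76. Acaca fell in knockout against D489V (log2 difference -1.74 ± 0.42, adjusted p = 0.0167, limma). Gm5182 still varied more than its parent: it was 0.113% of the pair in control 4 and 9.64% in D489V 5. Atp6v1g1 ranged from 4207 to 9163 with a Spearman correlation of 0.80 to Gm13453, and its differences did not pass in D489V against control (0.46 ± 0.15, adjusted p = 0.353) or knockout against D489V (-0.17 ± 0.13, adjusted p = 0.341).

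Eif3j1, 2700038G22Rik and Tmem181a ran opposite to the listed genes they resemble. Eif3j1 stood at 1834, 1753, 2977, 4145 and 2897 in controls, at 4647, 3527, 4592, 3474 and 4451 in knockout and at 3017, 2981, 1697, 3326 and 3581 in D489V samples. The 3 samples highest for Eif3j2, controls 1 and 2 and D489V 3, were the 3 lowest for Eif3j1, and the Spearman correlation was -0.78. Eif3j2 made up 3.39% to 5.55% of the pair in knockout, 18.7% to 41.2% in D489V and 3.72% to 42.5% in control samples. The pair's sum ran from 2886 to 4810. Only 8.15% of the 50-base stretches of Eif3j2 occur in no transcript of another annotated gene. How reads were divided between Eif3j2 and Eif3j1 is not known, and its part in these values was not tested. Eif3j1 did not pass in knockout against D489V (0.54 ± 0.18, adjusted p = 0.0547, limma), but did without D489V 4 (adjusted p = 0.0460) or D489V 5 (adjusted p = 0.0365). It did not pass in the comparisons with controls.

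2700038G22Rik, which shares the promoter stretch of AI506816, stood at 123, 108, 17, 17 and 46 in controls, at 14, 15, 48, 21 and 27 in knockout and at 92, 82, 92, 72 and 71 in D489V samples. In 6 of the 9 samples high for AI506816, controls 3 and 4 and knockout 1, 2, 4 and 5, it held 27 or less. In the other 3, whose AI506816 values were the lowest of the 9, it stood at 46 in control 5, 48 in knockout 3 and 72 in D489V 4, the last within the range of the other D489V samples. It fell in knockout against D489V (-1.80 ± 0.30, adjusted p = 0.00403, limma), and the Spearman correlation with AI506816 was -0.87. Tmem181a had a Spearman correlation of -0.82 with Tmem181c-ps and was higher in knockout than in D489V samples (0.52 ± 0.16, adjusted p = 0.0372), while Tmem181b-ps, as close in sequence, had a Spearman correlation of -0.31 and did not pass (0.46 ± 0.19, adjusted p = 0.0918). The Tmem181a call was lost when any 1 of knockout 1 to 4 or D489V 1, 2 or 5 was left out, with adjusted p values from 0.0532 to 0.0936.

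The histone relatives of Hist1h2al held low values and no common direction. Hist2h2aa1, the closest, was listed at 0 in all 15 samples. Hist2h2aa2, as close in sequence, stood between 21 and 81 and did not follow Hist1h2al (Spearman -0.03). Gm20634 and Gm20633, which overlap Hist2h2aa1 on the same and on the opposite strand, were singled out after their values were seen. Gm20634 stood at 0, 0, 11, 17 and 3 in controls, at 23, 31, 9, 11 and 14 in knockout and at 8, 0, 3, 5 and 8 in D489V samples. Its order was nearly the reverse of Hist1h2al (Spearman -0.99). It did not pass in knockout against control (2.13 ± 0.82, adjusted p = 0.312, limma) and was below the filter in the other comparisons. Gm20633 ran the other way (Spearman 0.74), at 15, 13, 7, 4 and 9 in controls, at 5, 2, 5, 7 and 4 in knockout and at 17, 7, 6, 26 and 6 in D489V samples, below the filter in all 3 comparisons. Reads from overlapping genes and from identical stretches cannot be told apart here.

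**Figure D3:**
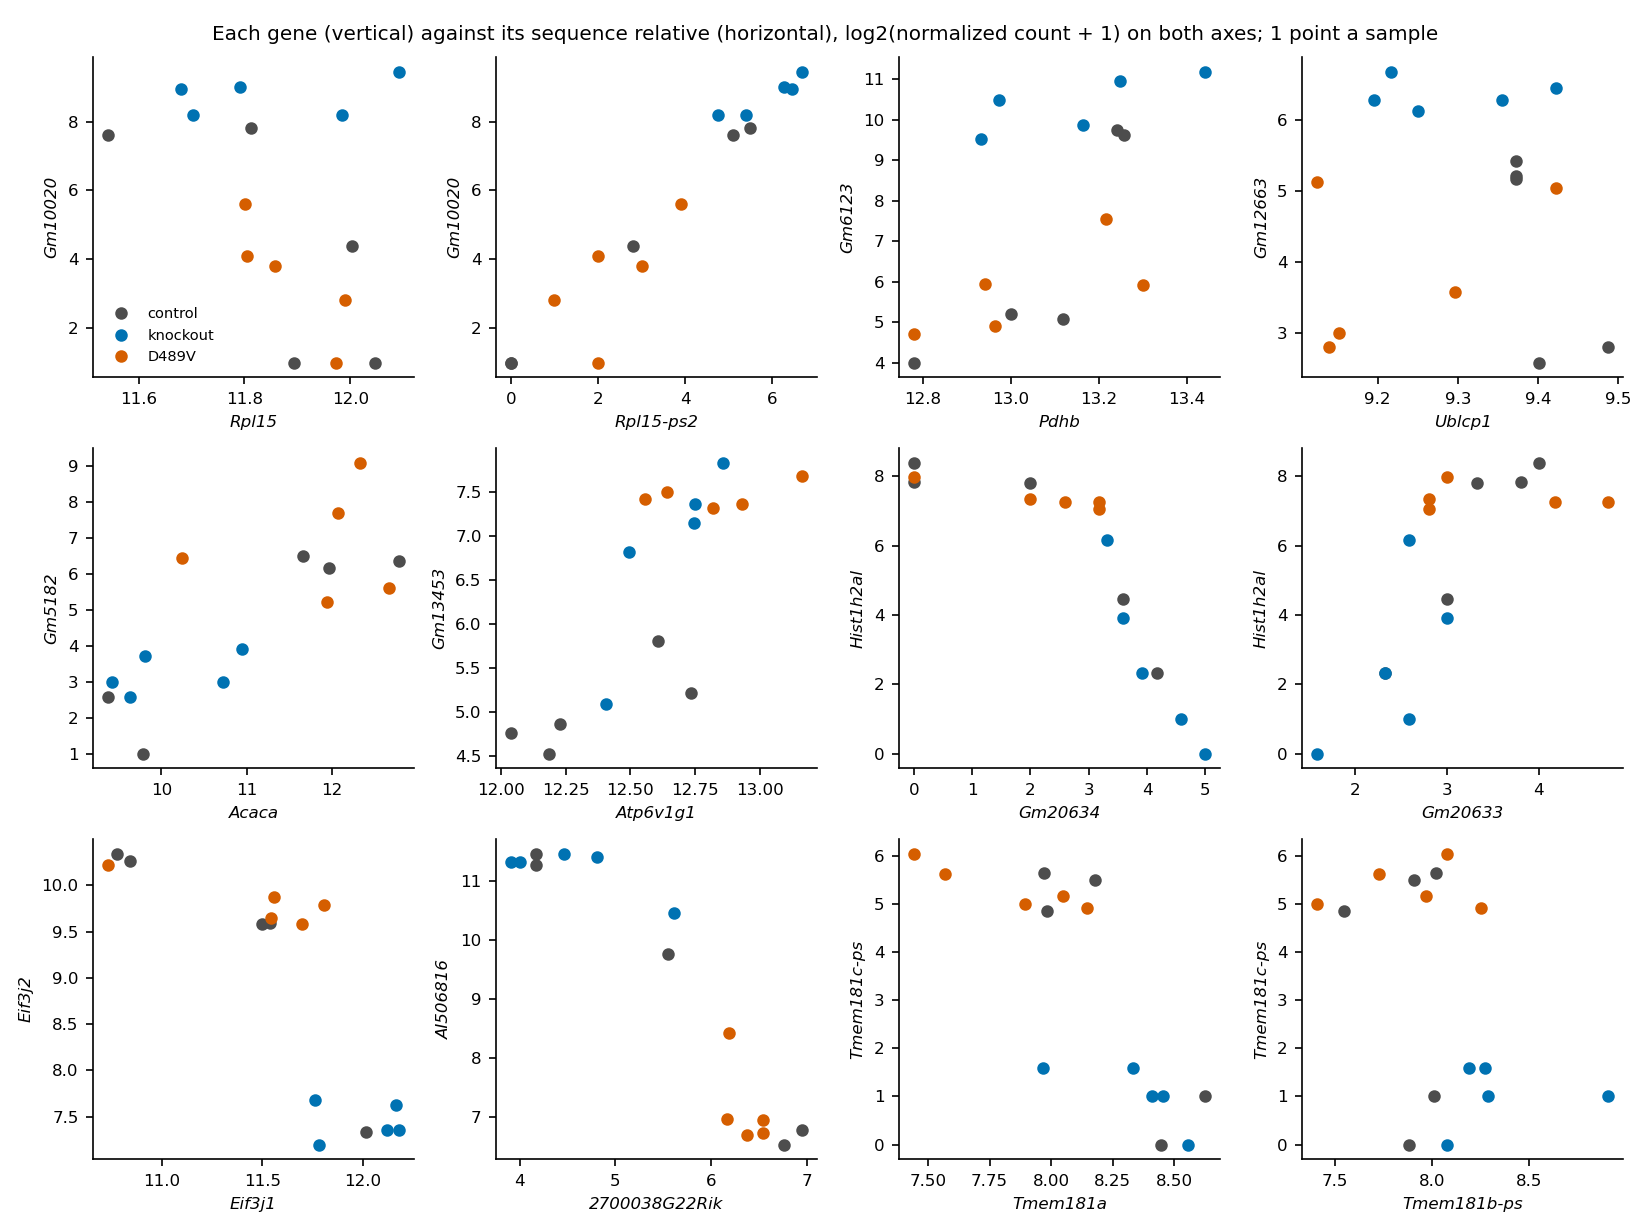
Each panel plots a listed gene on the vertical axis against a sequence relative on the horizontal axis, both as log2(normalized count + 1), with 1 point per sample coloured by group. Gm10020 spans 1 to 700 while Rpl15 spans 2980 to 4366, Gm10020 rises with Rpl15-ps2, and AI506816, Eif3j2 and Tmem181c-ps fall as 2700038G22Rik, Eif3j1 and Tmem181a rise. Hist1h2al falls with Gm20634 (-0.99) and rises with Gm20633 (0.74).

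Of the 27 near-identical relatives of all 10 genes, 15 were tested in knockout against D489V and 5 passed: Rpl15-ps2, Rpl15-ps3 and Tmem181a higher, Acaca and 2700038G22Rik lower. Reads shared with the listed genes may enter these values. A second set joined the closest relative of each gene with the families eIF3, histone H2A, Tmem181 and asparagine metabolism, and leaves out 15 near-identical relatives, the Rpl15 pseudogenes among them. In it 9 of 41 tested genes passed in knockout against D489V (22%, 6 higher and 3 lower), beside 20.8% of all genes. In knockout against control 0 of 41 passed and in D489V against control 0 of 40 (limma; 11 and 4 at an unadjusted p under 0.05). The 9 became 4 or 5 without knockout 1 or 4, and 3, 4 or 5 without D489V 1, 2 or 3. The median log2 difference of this set was 0.10 in knockout against D489V, beside 0.00 over all genes tested. Of the 13 subunits of eIF3, the factor Eif3j2 belongs to, 1 passed, higher in knockout, and the median log2 difference was 0.11. Of 10 tested histone H2A genes 1 passed: H2afz, a variant histone, was higher in knockout (0.33 ± 0.09, adjusted p = 0.0212; 0.0544 without D489V 1). Of 10 genes of asparagine metabolism, the pathway of Aspg, 4 passed, 3 higher and 1 lower in knockout. Asns, which makes the asparagine that Aspg breaks down, was the lower one (-1.24 ± 0.22, adjusted p = 0.00564), with controls 4 and 5 at 49 and 44 below the other controls at 131 to 143, as for Aspg.

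Neighbouring genes were examined to see whether the steps extend along the chromosome. The nearest 3 tested genes on each side of each listed gene gave 59 genes in all. In knockout against D489V 15 of 59 passed (25.4%, 4 higher and 11 lower), beside 20.8% of all genes, and 7 or 8 without D489V 1 or 2. In either comparison with controls 0 of 59 passed (limma; 6 in knockout and 7 in D489V at an unadjusted p under 0.05). Gm3650, an unprocessed pseudogene 249 bases from Eif3j2, stood at 49, 29, 5, 1 and 16 in controls, at 0, 2, 0, 0 and 1 in knockout and at 18, 13, 36, 15 and 14 in D489V samples. It shared the low value of Eif3j2 in control 4 and the knockout samples, but was also low in control 3, where Eif3j2 was high. Its log2 difference was -3.72 ± 0.48 (adjusted p = 0.00176, limma). Dynlt1c, a dynein light chain gene 3979 bases from Tmem181c-ps, stood at 133, 181, 88, 71 and 113 in controls, at 108, 73, 94, 115 and 123 in knockout and at 218, 197, 179, 166 and 187 in D489V samples. It fell by 0.89 ± 0.15 on the log2 scale in knockout against D489V (adjusted p = 0.00487) and had the highest Spearman correlation with Tmem181c-ps of 15806 genes, 0.94. Controls 3 and 4 were its lowest controls, as for Tmem181c-ps. Other neighbours of Tmem181c-ps did not share this. Dynlt1f, 6.81 kb away on the other side, did not pass (-0.07 ± 0.14, adjusted p = 0.753, limma). Dynlt1b, 177.5 kb away, did not pass either (0.50 ± 0.17, adjusted p = 0.0557). Rsph3b, 264.6 kb away, was higher in knockout (0.71 ± 0.20, adjusted p = 0.0269), with a Spearman correlation of -0.86 to Tmem181c-ps.

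Other near neighbours that passed did not all move with the listed gene. Mrpl15, a mitochondrial ribosomal protein gene 1007 bases from Gm6123, was lower in knockout than in D489V samples (-0.49 ± 0.12, adjusted p = 0.0167, limma), where Gm6123 was higher, and their Spearman correlation was -0.77. Gm37144, 5.86 kb from Gm6123, was also lower (-1.30 ± 0.32, adjusted p = 0.0182; 0.0542 without D489V 1 and 0.0522 without D489V 2), with a Spearman correlation of -0.85. Kif26a, a kinesin family gene 18.6 kb from Aspg, was lower (-0.78 ± 0.16, adjusted p = 0.00852) with a Spearman correlation of 0.86 to Aspg. Pus7, 28.0 kb from AI506816, was higher (0.39 ± 0.11, adjusted p = 0.0285, limma) with a Spearman correlation of 0.82 to AI506816. Kmt2e, 194.1 kb from AI506816, was lower (-0.38 ± 0.12, adjusted p = 0.0458) with a Spearman correlation of -0.74. These genes were singled out after their values were seen.

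Of the 5 neighbours with the smallest adjusted p, the other 3 lay farther off. A530016L24Rik, 361.9 kb beyond Aspg, was lower in knockout than in D489V samples (log2 difference -2.03 ± 0.30, adjusted p = 0.00273), and its controls 4 and 5, at 30 and 33 against 304 to 475, were low as for Aspg. The long non-coding RNA 5031425E22Rik, 264.0 kb from AI506816, was lower (-0.66 ± 0.12, adjusted p = 0.00596) with a Spearman correlation of -0.80 to AI506816. Kcns3, a modifier subunit of potassium channels 932.0 kb from Gm5182, was lower (-1.38 ± 0.26, adjusted p = 0.00651). Around Gm10020, Gm12663 and Gm13453 none of the neighbours passed.

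**Figure D4:**
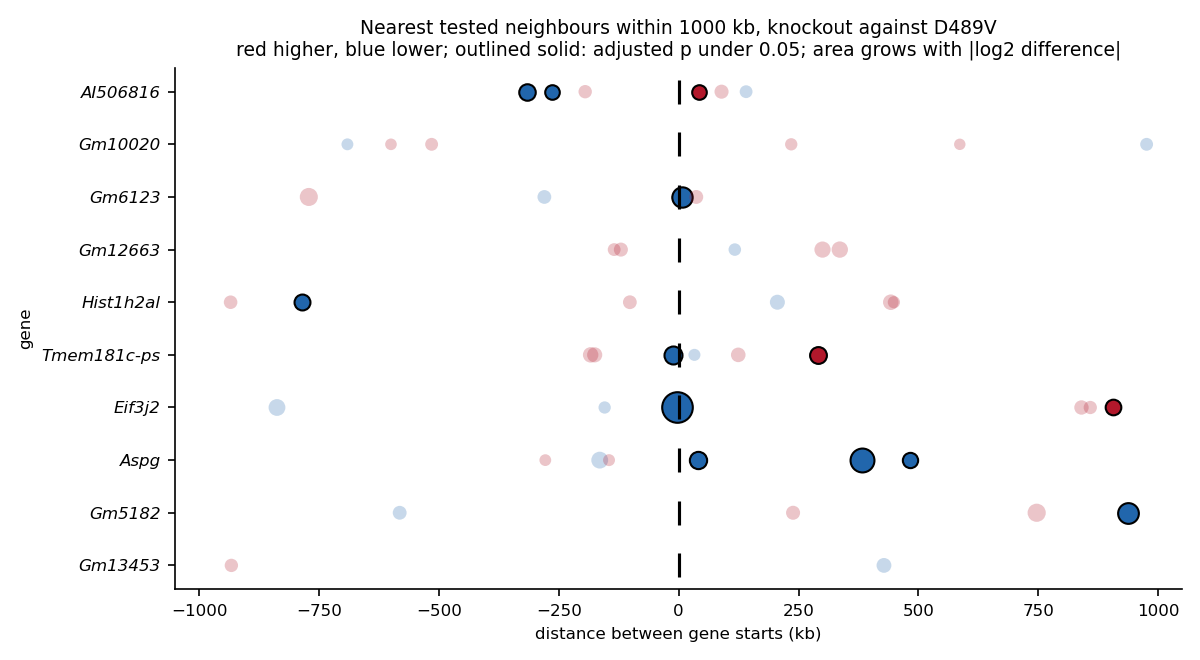
Tested genes within 1000 kb of each listed gene, among the 3 nearest on each side, are placed by the distance between gene starts in kb (horizontal axis), with 1 line per listed gene. Red is higher and blue lower in knockout than in D489V, area grows with the size of the log2 difference, and outlined points have an adjusted p under 0.05. The largest point is Gm3650, -3.72, beside Eif3j2.

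The genes that most resembled the listed ones across the 15 samples were scattered over the genome. The top match was Nlrp10 on chromosome 7 for AI506816 (Spearman 0.96), Pcnx2 on chromosome 8 for Gm10020 (0.95), Kcnj12 on chromosome 11 for Gm6123 (0.96) and 0610040J01Rik on chromosome 5 for Gm12663 (0.98). It was Zmynd15 for Hist1h2al (0.95), AC166575.1 for Eif3j2 (0.94), Zbtb46 for Aspg (0.96), 2900005J15Rik for Gm5182 (0.93) and Ssr4 for Gm13453 (0.84). Rpl15-ps2 was among the 3 most like genes for AI506816, Gm10020 and Gm6123 alike. Only for Tmem181c-ps was the top match a neighbour. A Spearman correlation of at least 0.8 was reached by 6.36% of 15806 genes for Gm12663 and 6.04% for Gm10020, but by 0.0380% for Gm13453. These points share libraries and groups, so the values describe likeness over these samples only.

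Genes known to differ between inbred strains of mice were looked at beside them, from a list of 12 genes of which 7 were tested. In knockout against D489V 5 of the 7 passed (1 higher, 4 lower), beside 20.8% of all genes. The list was chosen with earlier results of these data known, so nothing is read from that count. In knockout against control 1 passed, Pttg1, which is the only gene of 15234 to do so (0.00656%), and in D489V against control 0, beside 0.0587% (limma; 2 at an unadjusted p under 0.05). Ifi202b, an interferon-inducible gene, stood at 253, 186, 11, 0 and 278 in controls, at 1, 0, 4, 28 and 21 in knockout and at 238, 160, 233, 133 and 161 in D489V samples. Its high samples were controls 1, 2 and 5 and all D489V samples, the same 8 as for Tmem181c-ps. Gbp2b, a guanylate-binding protein gene, divided them otherwise, at 0, 0, 63, 68 and 26 in controls, at 91, 15, 3, 4 and 2 in knockout and at 68, 101, 104, 89 and 83 in D489V samples. The mice's strain is not given, and its part in the steps was not tested.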

How the data were processed

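Poly(A) RNA of 15 mouse muscle samples, 5 per group, was sequenced from directional libraries, per the labels' protocols. The deposited values are a score: read counts after normalization by the authors, given as whole numbers, in 2 tables that hold identical control values for all 55536 genes. Per the submitters' processing notes, Trim Galore 0.6.0, cutadapt, FastQC, STAR 2.7.0e, DESeq2 1.26.0 and the build GRCm38 were used, with no role stated. The counting tool, its strand setting and its handling of reads with several matches are not given in the sources used here. Whole reads could not be recovered, so no count model was run.

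The median ratio between samples of the 2 tables was 1.007 to 1.010, so values were set side by side. Gene identifiers all matched GENCODE M21, whose names were used because 27 gene names differ between the tables. For each comparison a linear model with a trended, moderated variance (limma 3.58.1 in R 4.3.3, two-sided) was fitted on log2(value + 1) to genes with at least 10 in at least 5 of the 10 samples, and p-values were adjusted by Benjamini-Hochberg over all genes tested, with a threshold of 0.05. The procedure was tested on simulated data. Nothing in the labels says how separate the samples of a group are beyond being separate samples, so p-values measure the spread between these samples. The search for the genes of highest Spearman correlation used genes with at least 10 in at least 5 of 15 samples. Other Spearman correlations had no such filter. Relatives were found with BLAST 2.17.0, and neighbours are the 3 nearest tested genes on each side.

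The 10 genes, the gene lists and the tests were chosen with earlier results of these data known. Named beside the 10 genes are their closest relatives, up to 5 relatives and 5 neighbours per comparison by smallest adjusted p, the 3 genes of highest Spearman correlation per gene, Pdgfrb, and the list of genes known to differ between strains. Genes outside that rule, such as Rpl15-ps3, Hist2h2aa2, Gm20634, Gm20633, Mrpl15, Gm37144 and Kif26a, were singled out after their values were seen. The same holds for Gm49594, Gm4294, Dynlt1f, Dynlt1b, Rsph3b, Pus7 and Kmt2e. One named relative is not reported here. Replicate numbers did not pair the samples. Alternatives were another pseudocount, other filters, quantile and upper-quartile rescaling, a replicate block and leaving out each sample in turn.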

Additional observations from a re-analysis of the deposited data

Results flagged for a closer look

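Samples far from the others of their group of 5 were looked for by Dixon's criterion in the 10 genes, their closest relatives and Pdgfrb. For the 10 genes, chosen for large differences between samples, the 3 such samples are a description only. For the relatives and Pdgfrb, 3 of 27 groups held one, where chance gives about 1 in 20, or 1.35. The gap to the nearest sample is given as a share of the group's range on the log2(value + 1) scale. AI506816 was far in knockout 3 (1406 against 2569 to 2826, gap 0.863) and in D489V 4 (342 against 103 to 124, gap 0.846). Eif3j2 was far in control 4 (160 against 765 to 1297, gap 0.747), and its relative Eif3j1 in D489V 3 (1697 against 2981 to 3581, gap 0.754). Tmem181b-ps was far in knockout 3 (479 against 269 to 312, gap 0.743), the library with the high Xist value. Ublcp1 was far in control 2 (717 against 662 to 675, gap 0.756), a difference of few counts.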

How the results depend on the processing

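Of the log2 differences of the 10 genes under the alternatives, 395 moved by less than the spread between replicates and 1 by more, that of Tmem181c-ps in knockout against D489V with a pseudocount of 5 (-2.87). The difference of Eif3j2 in D489V against control, 0.40 with all samples, changed sign without control 4 (-0.12). The high and low samples of Gm5182 changed to 1 high sample with a pseudocount of 5 and to 8 with a division at the midpoint, and the midpoint moved 1 sample for AI506816 (8 high), Gm10020 (8), Hist1h2al (10) and Aspg (8). The cause of the changes below was not tested. Relatives passing in knockout against D489V numbered 5 instead of 9 without the filter and 3 to 13 when 1 sample was left out (lowest without D489V 1), and neighbours 7 to 16 instead of 15 (lowest without D489V 1, and 8 without D489V 2). Without the library labelled knockout 3 they numbered 6 and 12. Of the values of the relatives and neighbours named, 351 kept their direction and side of the threshold, 12 lost it, 3 gained it and 3 changed sign: Rpl15 without knockout 1 or 2 (-0.0956 to 0.00730 when 1 sample was left out) and Pdhb after quantile normalization (-0.0105). Gm49594, Gm4294, Dynlt1f, Dynlt1b, Rsph3b, Pus7 and Kmt2e were not in this count. The H2afz call was also lost after quantile normalization (adjusted p = 0.0696) and the Tmem181a call without the filter (0.0559), and Eif3j1 passed after upper-quartile rescaling (0.0459). Over all genes, leaving out 1 sample gave 1398 to 3686 in knockout against D489V instead of 3181, 2 to 26 in D489V against control instead of 9, and 1 to 7 in knockout against control instead of 1. In D489V against control 19 genes passed with a pseudocount of 5 (52.6% higher), 4 with a mean of at least 50 (75.0%), 16 after quantile normalization (43.8%) and 18 after upper-quartile rescaling (61.1%), beside 44.4% higher as reported. In knockout against control quantile normalization gave 3 genes. No relative or neighbour passed against controls under any alternative run. Unadjusted p-values under 0.05 numbered 2296 in knockout and 1447 in D489V against control.

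Correlations of same-numbered samples ran from -0.28 to 0.29, from -0.35 to 0.36 and from -0.08 to 0.14 in the 3 comparisons, so equal numbers do not mark paired samples. With the replicate block 1, 7 and 2208 genes passed, with 6 relatives and 12 neighbours in knockout against D489V. Low values such as those of Tmem181c-ps, Gm20634 and Gm3650 rest on few reads, and the depth behind them is not known.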
